A study of Homo sapiens with 12 samples.

Results

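The genes described here are 48 genes of the G1/S transition, the MCM helicase and the DNA replication machinery. They were identified by gene symbol, and each of the 48 symbols matched 1 Ensembl row among the 62656 rows of the count table and 1 of the 38828 rows of the FPKM table. The series measured RNA in established human colorectal cancer cell lines, to ask how the long non-coding RNA SLERT acts in liver metastasis. It has 12 libraries in 4 groups of 3: HCT116 with SLERT overexpression (OE), HCT116 control (columns headed as empty vector), LoVo with SLERT knockdown (KD, by short hairpin RNA) and LoVo control (control hairpin). The promoter of the OE vector, the hairpin sequences, and whether the cells were clones or pools were not given in the sources used here.

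Replication is set up before S phase. In G1, the origin recognition complex (ORC) with CDC6 and CDT1 loads the ring of MCM2 to MCM7 onto DNA, an event called licensing. Cyclin E and its kinase then help to start S phase, CDC45 and the GINS complex join the MCM ring to make the active helicase, and polymerases, the sliding clamp PCNA and its loader RFC copy the strands. Many of these genes are transcribed together at G1/S by E2F factors, which are held in check by the RB protein, and colorectal cancers, like other proliferating tissues, express them strongly.

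E2F factors bind DNA words of the kind TTTCCCGC, TTTCGCGC, TTTGCCGC and TTTGGCGC, read on either strand. The promoter stretches below show where such words lie in genes that the results turn on. Each runs 5′ to 3′ from 70 bases before to 20 bases after a transcription start in RefSeq (GRCh38.p14), in lower case with E2F words in capitals. MCM3, CDC6 and PCNA were called higher with OE, MCM2, TK1 and ASF1B higher with OE and lower with KD, and RFC3 higher with KD. The table lists 2 starts each for PCNA and TK1, and 1 of them is shown. A start with an E2F word near it was taken where there was one, so the PCNA stretch was picked for its word.
MCM3 (chr6:52284723-52284812, minus strand): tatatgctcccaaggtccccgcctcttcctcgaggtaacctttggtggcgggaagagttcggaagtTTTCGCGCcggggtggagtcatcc
MCM2 (chr3:127598341-127598430, plus strand): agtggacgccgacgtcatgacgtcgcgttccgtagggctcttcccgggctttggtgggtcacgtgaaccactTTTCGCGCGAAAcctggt
CDC6 (chr17:40287809-40287898, plus strand): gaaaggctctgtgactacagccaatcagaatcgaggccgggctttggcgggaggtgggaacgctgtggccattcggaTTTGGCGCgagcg
PCNA (chr20:5126603-5126692, minus strand): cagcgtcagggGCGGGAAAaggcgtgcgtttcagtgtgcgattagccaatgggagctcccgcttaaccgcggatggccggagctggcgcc
TK1 (chr17:78187185-78187274, minus strand): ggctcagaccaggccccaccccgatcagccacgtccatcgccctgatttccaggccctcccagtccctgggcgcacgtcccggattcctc
ASF1B (chr19:14136570-14136659, minus strand): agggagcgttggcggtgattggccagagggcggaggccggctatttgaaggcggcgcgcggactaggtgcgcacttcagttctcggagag
RFC3 (chr13:33818079-33818168, plus strand): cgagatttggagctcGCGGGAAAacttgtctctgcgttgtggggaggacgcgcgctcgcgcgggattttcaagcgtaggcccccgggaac
Counting the start as base 1, the MCM3 word began 4 bases before the start and the MCM2 word at base 3, where its letters overlap a second word, on the opposite strand, from base 7. The CDC6 word began at base 8. In PCNA and RFC3 the word lay on the opposite strand, with its leftmost base 59 and 55 bases before the start. No word stood in the stretches of TK1 and ASF1B.

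Library totals ranged from 14464008 to 17230310 counts, and between 57 (POLA2) and 10463 (MCM7) counts fell on each of the 48 genes per library. Replicates of a group correlated at r of 0.9937 to 0.9955 on log2 CPM (counts scaled to equal library size), and pairs differed by 2.40 to 6.63 times the counting noise (chi-square per degree of freedom), so none was a repeat of another. The labels do not say whether replicates were separate cultures, so the p-values rest on the spread among these libraries, which may be technical. SLERT has no row of its own, and its locus was read from the host gene TBRG4 and the snoRNAs of its introns. SNORA5C, one of them, had 33.8, 40.2 and 47.3 CPM in OE libraries, against 0.231, 0.232 and 0.495 CPM in HCT116 control libraries (log2 fold change 6.97, adjusted p = 3.5e-19). SNORA5A had 2.39, 2.80 and 3.77 CPM in OE libraries and 0 counts in each HCT116 control library. TBRG4 had 243, 251 and 270.1 CPM in OE libraries, against 159, 153 and 173 CPM in control libraries (log2 fold change 0.66, adjusted p = 5.24e-08). In LoVo neither gene passed the test: the log2 fold change was -0.02 for SNORA5C (95% interval -0.92 to 0.87) and 0.07 for TBRG4 (95% interval -0.05 to 0.20), so the locus gave no check of the knockdown label, and directions below are those of the libraries labelled SLERT knockdown.

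The epithelial label held for part of its markers. KRT8, KRT18, KRT19, EPCAM and CDH1 were expressed in both lines, whereas CDX1 had no count in HCT116. CDH17, GPA33, LGALS4, VIL1 and KRT20 were near the floor there, averaging 0.601, 0.501, 0.138, 0.0798 and 1.48 CPM in HCT116 control libraries. In LoVo control libraries they averaged 273, 82.0, 13.6, 99.2 and 12.4 CPM. CDX2 averaged 22.0 CPM in HCT116 control and 217 CPM in LoVo control libraries. The 12 epithelial markers summed to 4586 to 4920 CPM in OE and 4482 to 4609 CPM in HCT116 control libraries, and to 7102 to 7702 CPM in KD and 8145 to 8694 CPM in LoVo control libraries. The labels' protocol speaks of retinas, but 13 retina markers summed to 12.3 to 15.5 CPM in HCT116 and 4.95 to 7.91 CPM in LoVo, with OPN1MW at 0 in both lines and CRX, RCVRN and GNAT1 at 0 in LoVo. RPE65 was the highest of them, averaging 11.5 CPM in OE, 11.1 in HCT116 control, 3.57 in KD and 2.67 in LoVo control libraries. The 8 leukocyte markers summed to 2.43 to 5.21 CPM in all 12 libraries. The 10 fibroblast and endothelium markers summed to 70.7 to 76.4 CPM in OE and 78.2 to 85.3 CPM in HCT116 control libraries, with DCN at 0, and to 0.878 to 2.21 CPM in KD and 2.13 to 2.77 CPM in LoVo control libraries, with COL1A2, KDR and CDH5 at 0. COL1A1 made up most of the HCT116 sums, averaging 69.1 CPM in OE and 79.2 CPM in control libraries, against 0.761 in KD and 1.22 in LoVo control libraries.

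Overexpression of SLERT in HCT116 went with slightly higher RNA of the replication genes as a group. Of the 48 genes, 18 rose and 0 fell at an adjusted p under 0.05 (edgeR quasi-likelihood F test, Benjamini-Hochberg adjustment over all 15980 genes tested), which is 37.5% of the set, where 0.914% of all genes tested were called, 0.507% higher and 0.407% lower. All 48 passed the filter on low counts, and the log2 fold change was positive for all 48, from 0.05 (LIG1) to 0.41 (WDR76), with a median of 0.25 against -0.0023 over all genes tested. The rise of the 18 called genes was small in size, at fold changes of 1.16 to 1.33. Summed over the 48 genes, OE libraries had 6029, 5918 and 6003 CPM, against 5066, 5059 and 5061 CPM in control libraries. In 39 of the 48 genes every OE library lay above every control library, and in 0 below, against 9.56% and 9.58% of all genes tested. The 18 genes made up 22.2% of the 81 genes that rose in the whole transcriptome. The set and the lists set beside it below were chosen with earlier results of these data known. Their shares, here and below, therefore describe the genes chosen and give no independent support. In bulk RNA, more cells at one stage of the cycle and more RNA per cell cannot be told apart. The number of genes with at least 10 counts also differed between the groups, at 15636 to 15984 in OE and 16118 to 16329 in control libraries, and its part in the result was not tested.

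**Figure D1:**
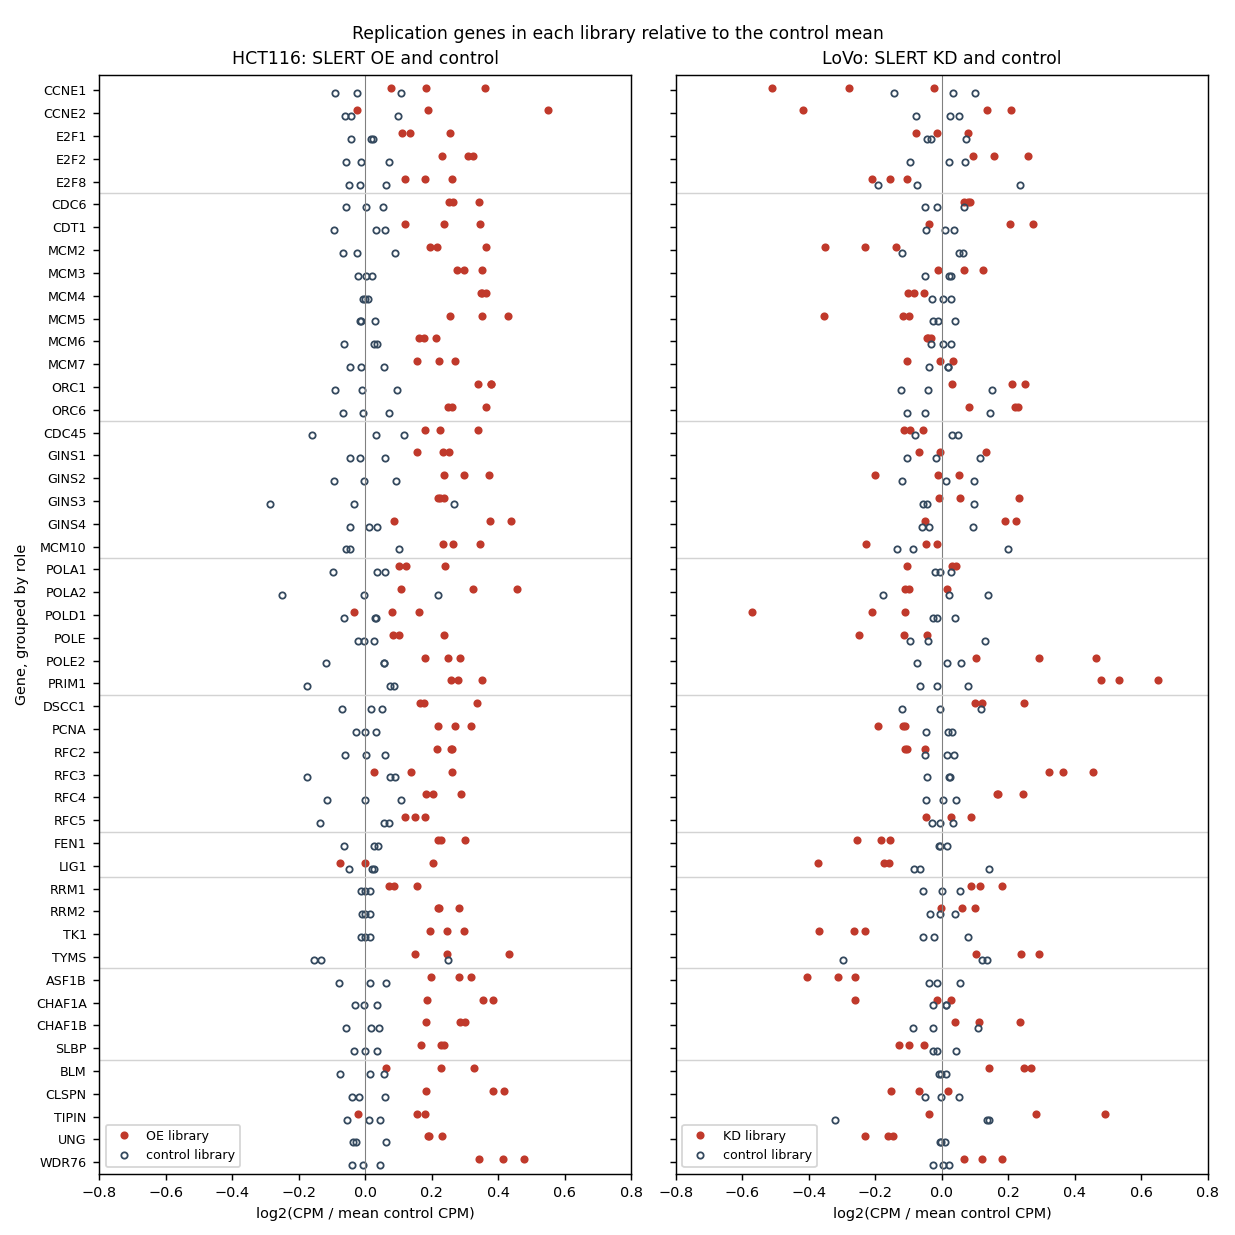
Each of the 48 genes in each library, as log2 of its CPM over the mean CPM of the control libraries of the same line (filled red, OE or KD libraries; open, control libraries), with genes grouped by role from G1/S regulators at the top to repair and checkpoint genes at the bottom. In HCT116 the OE points lie to the right of the control points for 39 of 48 genes, whereas in LoVo the KD points lie on both sides, wholly above for 9 genes and wholly below for 11.

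Licensing genes had the most calls, with 7 of 10 higher in OE (median log2 fold change 0.29). MCM4 (chr8:47960185-47978160 in GRCh38), a subunit of the helicase ring, had 369, 372 and 368 CPM in OE libraries, against 287, 289 and 291 CPM in control libraries. Its groups stood far apart relative to their spread, with means of 369.6 ± 1.99 and 289 ± 1.77 CPM (SD, n = 3 each) and a log2 fold change of 0.35 (SE 0.0502, adjusted p = 0.000278), the smallest p of the set. MCM5 (chr22:35400063-35425430) had 240.3, 225 and 254 CPM in OE libraries, against 186, 187 and 192 CPM in control libraries (log2 fold change 0.35, SE 0.0554, adjusted p = 0.00152). MCM3 (chr6:52264009-52284881) had 423, 417 and 440.2 CPM in OE libraries, against 349.9, 339.8 and 345 CPM in control libraries (log2 fold change 0.31, SE 0.0506, adjusted p = 0.00197). For these subunits no OE library overlapped a control library. MCM2 (chr3:127598223-127622436) had 213, 192 and 189.9 CPM in OE libraries, against 176, 163 and 158 CPM in control libraries (log2 fold change 0.26, adjusted p = 0.0276). MCM7 rose by 0.22 on the log2 scale (adjusted p = 0.0389), and MCM6 had 0.18 (adjusted p = 0.0895), which did not pass. Of the 6 subunits of the ring, 5 were thus called, and for MCM6 too all OE libraries lay above all control libraries.

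The loaders of the ring followed. CDC6 (chr17:40287633-40304657), which with ORC loads MCM onto origins, had 158, 168 and 159 CPM in OE libraries, against 127, 138 and 133 CPM in control libraries (log2 fold change 0.29, SE 0.0561, adjusted p = 0.011). ORC1 (chr1:52372829-52404459), the largest ORC subunit, had 54.2, 54.2 and 52.7 CPM in OE libraries, against 44.6, 41.4 and 39.1 CPM in control libraries (log2 fold change 0.36, SE 0.0722, adjusted p = 0.0111). Both genes had separate groups, although the ORC1 control libraries were themselves more scattered than the OE ones. CDT1 and ORC6 had log2 fold changes of 0.24 and 0.29 and did not pass (adjusted p = 0.0663 and 0.0601).

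Among the genes that turn the loaded ring into an active helicase, 2 of 6 were called. GINS2, a GINS subunit, averaged 54.4 ± 2.54 CPM in OE and 44.1 ± 2.83 CPM in control libraries (SD, n = 3 each; log2 fold change 0.30, adjusted p = 0.0389). MCM10, which helps to activate the helicase, averaged 71.2 ± 2.86 CPM in OE and 58.6 ± 3.68 CPM in control libraries (SD, n = 3 each; log2 fold change 0.28, adjusted p = 0.0389). CDC45, GINS1, GINS3 and GINS4 had log2 fold changes of 0.25, 0.21, 0.23 and 0.31 and were not called. GINS3 was the one gene of the 6 whose groups overlapped.

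The G1/S regulators held 1 call in 5. E2F2, an activating E2F factor, averaged 54.03 ± 1.86 CPM in OE and 44.2 ± 2.01 CPM in control libraries (SD, n = 3 each; log2 fold change 0.29, adjusted p = 0.0433). E2F1, another activator, and E2F8, a repressor of the same targets, had log2 fold changes of 0.17 and 0.19 with groups that did not overlap, and were not called (adjusted p = 0.268 and 0.3). CCNE1 and CCNE2, the cyclins E, had 0.21 and 0.26, with overlapping groups. Of the annotated exon bases of CCNE2, 37.1% overlap other genes, mainly INTS8 on the opposite strand.

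The polymerases held no call in the main fit. All 6 had positive log2 fold changes, from 0.07 (POLD1, catalytic subunit of polymerase delta) to 0.31 (POLA2, a subunit of polymerase alpha with primase). In the main fit 0 of 6 passed edgeR's test, and 4 of 6 had an unadjusted p under 0.05. With DESeq2, 0 of 6 passed. Among 8 other settings, DESeq2 included, POLE was called in 1 and the other polymerases in 0. POLA1, POLE, POLE2 and PRIM1 each had every OE library above every control library. PRIM1 (chr12:56731596-56752373), the catalytic primase subunit, had 16.5, 15.5 and 15.8 CPM in OE libraries, against 13.8, 11.5 and 13.7 CPM in control libraries (log2 fold change 0.30, SE 0.11, adjusted p = 0.19). POLD1 had 107, 93.2 and 101 CPM in OE libraries, against 97.6, 97.5 and 91.4 CPM in control libraries (log2 fold change 0.07, 95% interval -0.06 to 0.20). Its groups overlapped, and the interval covers 0.

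PCNA (chr20:5114953-5126626), the clamp that holds polymerases on DNA, was the one call of 6 among the clamp and its loaders. It had 295, 316 and 305 CPM in OE libraries, against 248, 253 and 259 CPM in control libraries (log2 fold change 0.27, SE 0.0522, adjusted p = 0.00997). The loader subunits RFC2, RFC3, RFC4 and RFC5 had log2 fold changes of 0.24, 0.14, 0.23 and 0.15, and DSCC1, of the alternative loader used in sister chromatid cohesion, had 0.23. Only RFC3 of these had overlapping groups, at 37.5, 44.1 and 40.5 CPM in OE libraries, against 32.6, 39.2 and 38.7 CPM in control libraries. Lagging-strand fragments are trimmed by FEN1 and sealed by LIG1, and 1 of the pair was called. FEN1 (chr11:61792637-61797244) had 164, 155 and 156 CPM in OE libraries, against 135, 127 and 137 CPM in control libraries (log2 fold change 0.25, SE 0.0561, adjusted p = 0.0272). LIG1 had 109, 89.99 and 94.8 CPM in OE libraries, against 96.6, 96.2 and 91.8 CPM in control libraries (log2 fold change 0.05, 95% interval -0.09 to 0.18), and its groups overlapped.

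Of the 4 genes for deoxynucleotide supply, 2 rose. TK1 (chr17:78174075-78187233), the thymidine kinase of S phase, had 316, 305 and 328 CPM in OE libraries, against 264, 266 and 269 CPM in control libraries (log2 fold change 0.25, SE 0.0518, adjusted p = 0.0159). RRM2, the cell-cycle-regulated subunit of ribonucleotide reductase, averaged 408 ± 10.1 CPM in OE and 345 ± 3.05 CPM in control libraries (SD, n = 3 each; log2 fold change 0.24, adjusted p = 0.0157). The other reductase subunit, RRM1, had 0.10, and thymidylate synthase, TYMS, had 0.28, and neither was called. Of the annotated exon bases of TYMS, 46.6% overlap other genes, mainly ENOSF1 on the opposite strand, so its counts are uncertain if counting ignored strand.

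Chromatin assembly genes and repair genes each held 2 calls, of 4 and of 5. CHAF1A (chr19:4402662-4445018), the large subunit of chromatin assembly factor CAF-1, had 115, 102 and 117 CPM in OE libraries, against 89.7, 92.1 and 87.9 CPM in control libraries (log2 fold change 0.31, SE 0.0622, adjusted p = 0.0116). ASF1B (chr19:14119509-14136956), a histone chaperone of proliferating cells, had 106, 100.4 and 109 CPM in OE libraries, against 88.4, 82.9 and 91.4 CPM in control libraries (log2 fold change 0.27, SE 0.0611, adjusted p = 0.0297). CHAF1B and the histone mRNA binder SLBP had 0.26 and 0.21 and were not called (adjusted p = 0.0643 for both), with groups that did not overlap. WDR76 (chr15:43826963-43868419) had the largest fold change of the set, with 51.9, 54.2 and 49.4 CPM in OE libraries, against 38.8, 40.2 and 37.9 CPM in control libraries (log2 fold change 0.41, SE 0.0721, adjusted p = 0.00339). CLSPN, encoding the checkpoint mediator claspin, averaged 89.2 ± 7.67 CPM in OE and 70.9 ± 2.54 CPM in control libraries (SD, n = 3 each; log2 fold change 0.33, adjusted p = 0.0122). UNG, the uracil glycosylase, the helicase gene BLM and the fork protector TIPIN had 0.20, 0.21 and 0.11 and were not called.

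The number of calls with OE depended on single libraries while the direction did not. Without OE library 2, OE library 3, control library 1 or control library 2 the genes called higher numbered 6, 7, 6 and 5, and without OE library 1 or control library 3 they numbered 13 and 17. Of all genes tested, 0.1457%, 0.09668%, 0.1037% and 0.1036% were called higher in the same order, then 0.541% and 1.163%. MCM3, MCM4, MCM5 and WDR76 were called in all 6 of these fits, and the other 14 in 0 (MCM10) to 4 of them. On log2(FPKM + 1) with limma, MCM4 alone of the set passed the test, where 4 of all 15980 genes tested rose and 3 fell. With upper-quartile scaling 15 genes of the set were called higher and 0 lower, while over all genes 59 rose and 82 fell, against 81 and 65 with the scaling used here. The fold change was positive for all 48 genes under every scaling tried, and for 47 without OE library 1, where LIG1 was the exception.

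In LoVo, the libraries labelled SLERT knockdown showed changes of the set on both sides of 0. Of the 48 genes, 2 rose and 8 fell, which is 4.167% and 16.67% of the set, where 26.3% of the 16253 genes tested were called, 12.6% higher and 13.7% lower. Fold changes were positive for 23 genes and negative for 25, from -0.33 (ASF1B) to 0.56 (PRIM1) on the log2 scale, and the median was -0.0068 against 0.00051 over all genes tested. KD libraries lay wholly above control libraries for 9 genes and wholly below for 11, against 19.6% and 20.1% of all genes tested. The summed CPM of the 48 genes was 4602, 4381 and 4535 in KD libraries, against 4737, 4588 and 4657 in control libraries, so the groups overlapped. The share of counts on mitochondrially encoded genes differed between the groups without overlap, at 5.794% to 6.153% in KD and 5.088% to 5.532% in control libraries, and its part in the results for LoVo was not tested.

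The genes that fell came from several roles. ASF1B had 76.3, 73.6 and 68.99 CPM in KD libraries, against 90.5, 89.04 and 94.97 CPM in control libraries (log2 fold change -0.33, SE 0.0669, adjusted p = 0.000896). TK1 had 113, 105 and 115 CPM in KD libraries, against 133, 130.2 and 143 CPM in control libraries (log2 fold change -0.29, SE 0.0645, adjusted p = 0.00194). Both had every KD library below every control library, and both were called in all 6 fits that left out 1 library. MCM2 had 151, 130.4 and 142 CPM in KD libraries, against 173, 153 and 174 CPM in control libraries (log2 fold change -0.24, SE 0.068, adjusted p = 0.0116). MCM5 had 188, 157 and 186 CPM in KD libraries, against 207, 197 and 199.6 CPM in control libraries (log2 fold change -0.19, SE 0.0665, adjusted p = 0.0407). KD library 2 was the low one in both. MCM3, MCM4, MCM6 and MCM7 were not called, with log2 fold changes of 0.06, -0.08, -0.04 and -0.02.

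Both genes of the lagging-strand pair were called lower in LoVo, where 13.7% of all genes tested were. FEN1 kept its call in 2 and LIG1 in 4 of the 6 fits that left out 1 library. FEN1 had 81.7, 83.3 and 77.7 CPM in KD libraries, against 92.3, 93.8 and 92.4 CPM in control libraries (log2 fold change -0.20, SE 0.0641, adjusted p = 0.025). LIG1 had 110.4, 96.3 and 112 CPM in KD libraries, against 137, 117 and 119 CPM in control libraries (log2 fold change -0.23, SE 0.073, adjusted p = 0.0211). POLD1 (chr19:50384204-50418016) had 110.2, 80.2 and 103 CPM in KD libraries, against 123, 118 and 117 CPM in control libraries (log2 fold change -0.29, SE 0.0835, adjusted p = 0.0135). KD library 2 again had the lowest value of both genes, and it was also the library that differed most from its replicate KD library 1 over all genes. UNG averaged 137 ± 4.15 CPM in KD and 155 ± 0.88 CPM in control libraries (SD, n = 3 each; log2 fold change -0.18, adjusted p = 0.0282).

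The primase and a clamp loader subunit went the other way. PRIM1 had 17.5, 16.1 and 15.5 CPM in KD libraries, against 10.6, 11.02 and 11.8 CPM in control libraries (log2 fold change 0.56, SE 0.115, adjusted p = 0.000961). It was the largest change of the set in LoVo, and 21.6% of its annotated exon bases overlap other genes, mainly AC117378.1 on the same strand, which its counts may share. RFC3 (chr13:33818049-33966558) had 36.4, 39.9 and 37.4 CPM in KD libraries, against 29.6, 28.2 and 29.5 CPM in control libraries (log2 fold change 0.38, SE 0.0822, adjusted p = 0.0014). The groups did not overlap for either gene, and both were called in all 6 fits that left out 1 library. Other genes on the positive side were not called, among them POLE2 at 0.30, TIPIN at 0.26, BLM at 0.22, TYMS at 0.21 and RFC4 at 0.19 on the log2 scale.

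Several KD calls rested on single libraries. Genes called lower numbered 4 without KD library 3, 2 without control library 1, 5 without control library 2 and 4 without control library 3, and genes called higher numbered 7 without KD library 1, 4 without KD library 2 and 3 without control library 2. Of all genes tested, the fits without 1 library called 7.554% to 13.77% higher and 8.974% to 14.92% lower. MCM5 kept its call only without KD library 1, and LIG1 and POLD1 lost theirs without KD library 2 or control library 1. MCM2, FEN1 and UNG lost theirs without KD library 3, control library 1 or control library 3, and FEN1 and UNG also without control library 2. With all 12 libraries in 1 fit, 5 genes were called higher and 8 lower, where 12.13% and 12.18% of all genes tested were.

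Setting the lines side by side, 5 genes rose with OE and fell with KD: ASF1B, FEN1, MCM2, MCM5 and TK1. They are 27.8% of the 18 genes that rose with OE and 62.5% of the 8 that fell with KD. Over all genes tested, 0.507% were called higher with OE and 13.7% lower with KD. How many of all genes were called in both ways was not counted, so the 5 have no background share beside them. No gene was called in the same direction in both lines, 13 rose with OE alone, 2 rose and 3 fell with KD alone, and 25 were called in neither. Across the 48 genes the OE and KD fold changes had a Pearson r of 0.114, a description over genes that share their libraries.

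The difference between the changes was tested itself, as the OE change in HCT116 minus the KD change in LoVo in 1 fit of all 12 libraries. It was positive and past the threshold for 18 of 48 genes, which is 37.5% of the set against 6.03% of the 18199 genes tested, and negative and past it for 0, against 5.62% (11.6% of all genes in either direction). The way the set was chosen limits these shares as it does those with OE. Of the negative differences, that of RFC3 had an unadjusted p under 0.05 in edgeR, and DESeq2 called 0. The median over the set was 0.23 on the log2 scale, against -0.011 over all genes tested, and 42 of 48 differences were positive. ASF1B had the largest at 0.58 (95% interval 0.40 to 0.76, adjusted p = 5.83e-05). TK1 followed at 0.52 (0.36 to 0.68, adjusted p = 5.54e-05) and MCM5 at 0.52 (0.34 to 0.70, adjusted p = 0.000249). For MCM4 it was 0.42 (0.28 to 0.56, adjusted p = 0.000128), although its KD change alone was not called. Of the 18 genes, 12 had also risen with OE and 7 had also fallen with KD, while CCNE1, CDC45, RFC2 and SLBP were called in neither line alone. WDR76, CDC6, ORC1, RRM2, GINS2 and E2F2 rose with OE and their difference from the LoVo change did not pass. PRIM1 and RFC3 had negative differences of -0.27 (-0.59 to 0.04) and -0.25 (-0.50 to -0.01), not past the threshold (adjusted p = 0.28 and 0.18). ASF1B, CHAF1A, CLSPN, FEN1, MCM2, MCM4, MCM5, PCNA, RFC2, SLBP, TK1 and UNG were called in all 12 fits that left out 1 library, and the other 6 genes in 4 to 7 of them. The lines also differ in vector and in the kind of manipulation, which cannot be told apart from the direction of the SLERT change.

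**Figure D2:**
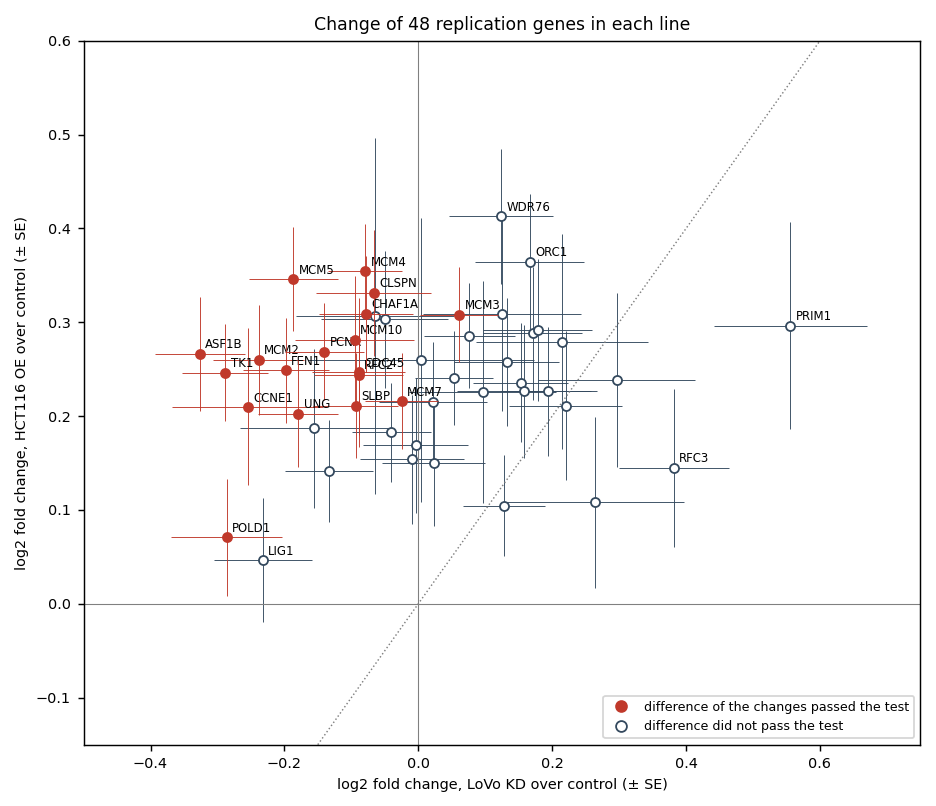
Log2 fold change of each of the 48 genes with OE in HCT116 (vertical, ± SE) against that with KD in LoVo (horizontal, ± SE), each from 3 libraries against 3, with the dotted line marking equal changes. Filled red points are the 18 genes whose difference passed the test: all lie above the dotted line, with ASF1B, TK1, MCM2, FEN1 and MCM5 on the upper left and PRIM1 and RFC3, not past the test, on the right.

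**Figure D3:**
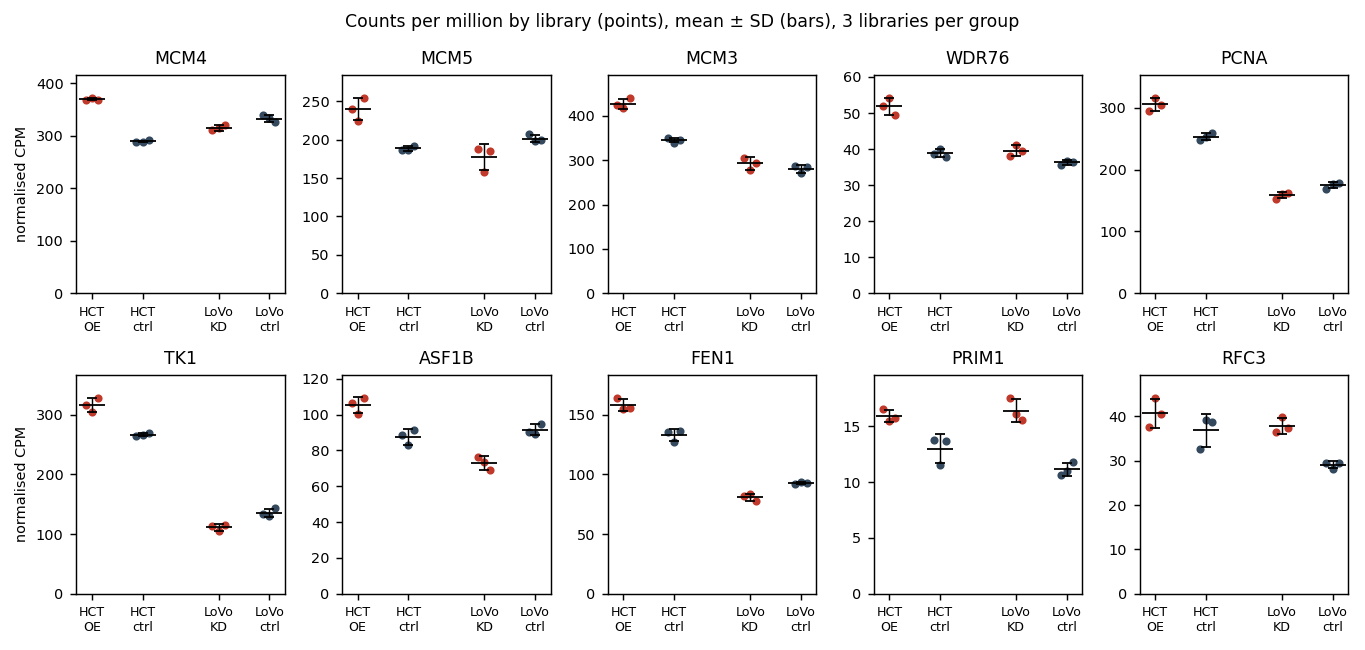
Normalised CPM of 10 genes in each library (points), with the mean ± SD of the 3 libraries in each group (bars), scaled within each line, all axes from 0. MCM4, MCM5, MCM3, WDR76, PCNA, TK1, ASF1B and FEN1 stand higher in OE than in HCT116 control libraries, and PRIM1 and RFC3 stand higher in KD than in LoVo control libraries.

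A list of 48 other replication genes was set beside these. With OE, 5 of 48 rose and 0 fell, 10.42% of the list higher against 0.507% of all genes tested, and 46 had positive fold changes (median 0.16 on the log2 scale). UHRF1, which guides maintenance methylation to replicated DNA, had 282, 254 and 267 CPM in OE libraries, against 209, 217 and 200.3 CPM in control libraries (log2 fold change 0.36, adjusted p = 0.00127). The exonuclease gene EXO1 had 44.4, 46.8 and 49.5 CPM in OE libraries, against 34.8, 35.9 and 37.8 CPM in control libraries (log2 fold change 0.37, adjusted p = 0.0116). CDC25A, a phosphatase that activates cyclin-dependent kinases at G1/S, had 54.6, 50.4 and 54.2 CPM in OE libraries, against 40.4, 40.03 and 44.8 CPM in control libraries (log2 fold change 0.35, adjusted p = 0.0159). None of these had overlapping groups. With KD, 4 of 47 tested rose and 3 fell (median 0.10), which is 8.511% and 6.383% of the list, below the 12.6% and 13.7% of all genes tested. The genes of the list with the smallest p were UHRF1, RECQL4 and CDC7. UHRF1 had 94.8, 81.5 and 89.2 CPM in KD libraries, against 125, 122 and 135 CPM in control libraries (log2 fold change -0.53, adjusted p = 4.9e-06). RECQL4, a helicase with a part in origin firing, had 99.6, 77.3 and 90.8 CPM in KD libraries, against 126, 110.2 and 117 CPM in control libraries (log2 fold change -0.40, adjusted p = 0.000576). CDC7, the kinase that phosphorylates MCM at firing, had 35.2, 37.8 and 38.02 CPM in KD libraries, against 29.9, 31.1 and 24.98 CPM in control libraries (log2 fold change 0.37, adjusted p = 0.00406). UHRF1 and RECQL4 were low in all KD libraries and CDC7 was high in all of them.

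Genes of the later cell cycle gave other counts. Of 36 tested genes of G2/M and mitosis, 1 rose with OE (SPC25, 0.43 on the log2 scale) and 0 fell, with a median of 0.08, which is 2.778% higher against 0.507% of all genes tested. Fold changes with OE were positive for 29 of them and negative for 7. Every OE library lay above every control library for 9 genes and below for 0, against 9.56% and 9.58% of all genes tested. With KD 12 of 37 tested rose and 1 fell, with a median of 0.11, which is 32.43% and 2.703% of the list against 12.6% and 13.7% of all genes tested, and the risers included ECT2 (0.35), HMMR (0.34), TOP2A (0.24) and CCNB1 (0.22). Summed over that list, OE libraries had 5628 to 5845 CPM and HCT116 control libraries 5331 to 5502 CPM, and KD libraries had 4610 to 4736 CPM and LoVo control libraries 4277 to 4428 CPM. The difference between the lists was not tested.

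Levels of the set in the control cells differed between the lines gene by gene. Relative to LoVo control, 28 of 48 genes were higher in HCT116 control and 14 were lower, which is 58.33% and 29.17% of the set (87.5% in either direction), where 79.0% of the 17143 genes tested were called, 39.9% higher and 39.0% lower. HCT116 control libraries lay wholly above LoVo control libraries for 30 genes and wholly below for 13, against 40.6% and 39.1% of all genes tested. The log2 differences ran from -1.75 to 1.47 with a median of 0.35. The CPM values were scaled within each line, so a ratio of them between lines departs slightly from the difference fitted over both. DSCC1 had 51.7, 52.9 and 48.7 CPM in HCT116 control libraries, against 18.03, 21.3 and 19.5 CPM in LoVo control libraries, a log2 difference of 1.47 (adjusted p = 1.56e-16). CLSPN, CDC6 and TK1 were higher in HCT116 control by 1.30, 1.15 and 1.07 on the log2 scale (adjusted p = 7.24e-17, 1.87e-17 and 1.08e-17). TK1 had 264, 266 and 269 CPM in HCT116 control libraries, against 133, 130.2 and 143 CPM in LoVo control libraries. POLA2 was lower, with 3.92, 3.31 and 4.58 CPM in HCT116 control libraries, against 12.5, 15.5 and 14.3 CPM in LoVo control libraries (log2 difference -1.75, adjusted p = 9.26e-12). In this gene 35.1% of the annotated exon bases overlap other genes, mainly AP000944.2 on the same strand. CDC45, UNG and CHAF1A were also lower in HCT116 control, at -0.63, -0.44 and -0.41. All 4 genes for nucleotide supply were higher in HCT116 control, whereas licensing genes split into 3 higher and 5 lower. Line, vector and hairpin control cannot be told apart in this comparison.

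Scaled by 1 length per gene, genes changed places between the lines. The lengths used set part of the order between genes. For POLA2 and RRM2 the FPKM values implied 12006 and 9153 bases, where annotated exons held 5726 and 5323. For MCM7 both were 4386 bases. DSCC1 ranked 20 of 48 in HCT116 control and 35 in LoVo control, CDC6 ranked 16 and 25, and MCM7 ranked 3 and 1 in the same order of lines. PCNA was the most abundant in HCT116 control at 182 ± 3.51 FPKM (fragments per kilobase of gene, scaled to library size; SD, n = 3), where LoVo control had 126 ± 3.22 FPKM. TK1 followed with 146 ± 1.38 FPKM in HCT116 control and 74.3 ± 3.33 FPKM in LoVo control, then MCM7 with 126 ± 3.92 and 148 ± 3.16 FPKM, and MCM3 with 95.4 ± 1.11 and 77.8 ± 2.23 FPKM in the same order of lines. At the low end stood CCNE2 with 1.67 ± 0.101 FPKM in HCT116 control and 1.52 ± 0.0685 FPKM in LoVo control, and POLA2 with 0.33 ± 0.0517 and 1.19 ± 0.127 FPKM. Neighbours in the order could be close: RRM1 and MCM2, at 36.6 and 35.4 FPKM in HCT116 control, differed by less than the SD of MCM2, 2.03 FPKM. The log2 FPKM of the 48 genes in the control lines had a Pearson r of 0.945 and a Spearman rho of 0.944, a description over genes that share their libraries.

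The subunits of the MCM ring, which assemble in equal numbers as proteins, differed in RNA level. In FPKM, MCM7 was the highest and MCM5 the lowest in all 4 groups, with MCM5 at 32.7 in OE, 26.1 in HCT116 control, 24.1 in KD and 28.01 in LoVo control. The ratio of the highest to the lowest subunit was 4.42 in OE and 4.84 in HCT116 control, and 5.92 in KD and 5.29 in LoVo control. MCM3 was the next in level, at 116, 95.4, 79.4 and 77.8 FPKM in the same order of groups, and MCM2, MCM4 and MCM6 lay between 29.57 and 59.97 FPKM. FPKM divides by 1 gene length per gene, so the lengths used set part of these ratios.

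**Figure D4:**
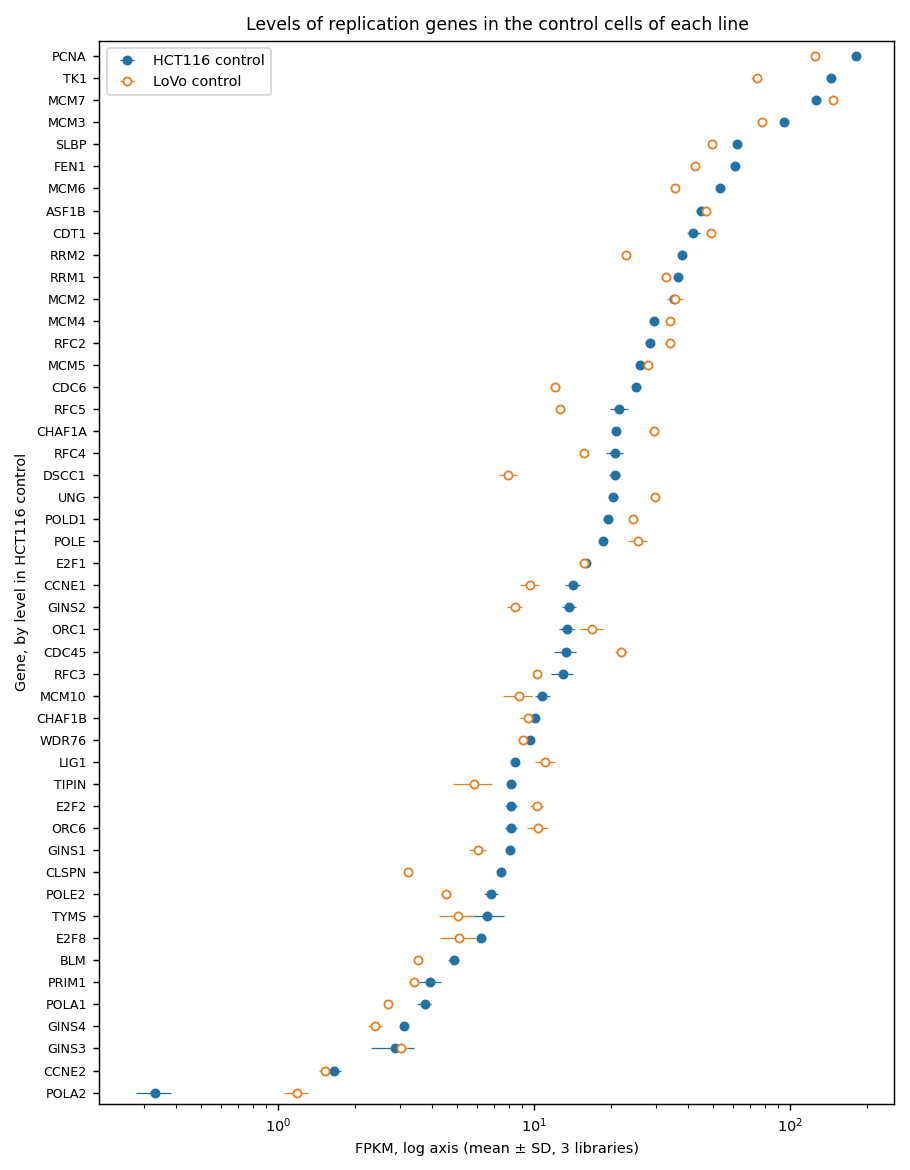
FPKM of the 48 genes (mean ± SD of 3 libraries, log axis) in HCT116 control (filled blue) and LoVo control (open orange), ordered by the HCT116 level. PCNA is at the top with 181.9 FPKM in HCT116 control and POLA2 at the bottom with 0.3302 FPKM, where the LoVo level of 1.187 FPKM is farthest to the right of the HCT116 one.

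Promoter windows of the replication genes often held E2F words. RefSeq promoter windows (250 bases before to 50 after the start) were found for 41 of the 48 symbols. Of the 18 genes that rose with OE, MCM4, MCM5 and WDR76 had none. An E2F word (TTTCCCGC, TTTCGCGC, TTTGCCGC or TTTGGCGC, on either strand) stood in 22 of 41 genes, 53.7%, against 6.45% of the 11285 genes tested in HCT116 with a window and 3.99% of all 27305 genes of the table. The other replication genes had it in 40.5% of 37 and the G2/M genes in 9.09% of 33. Among genes with a window, the word stood in 8 of 15 called genes, 53.3%, and in 14 of 26 genes not called, 53.8%. The CHR element (TTTGAA or TTCGAA, either strand), known from late cell-cycle promoters, stood in 9.76% of the set, 75.8% of the G2/M genes and 15.2% of the genes tested. A CCAAT box, on either strand, stood in 61.0% of the set, 81.8% of the G2/M genes and 43.0% of the genes tested. It stood in 12 of 15 genes that rose with OE and in 13 of 26 not called. The windows of E2F1, MCM2, MCM3, MCM6, MCM7 and TIPIN held more than 1 E2F word. Such matches describe letters in a window and show neither binding nor a cause.

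**Figure D5:**
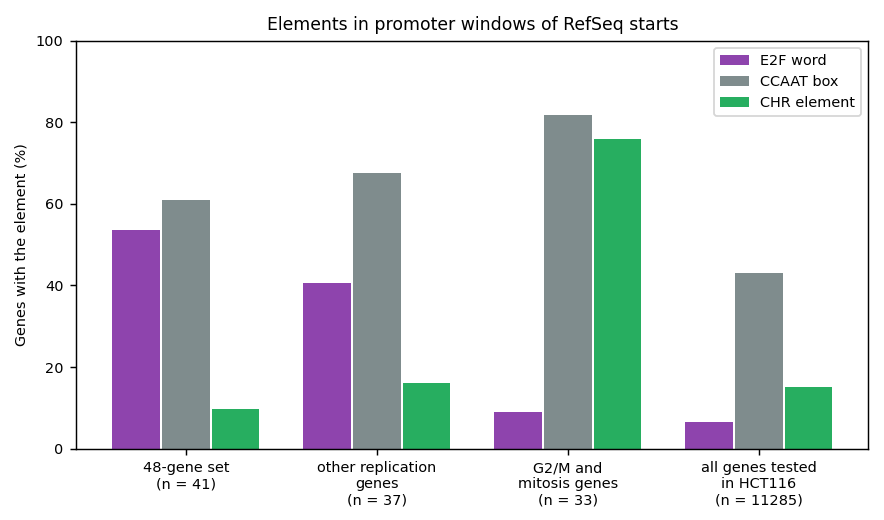
Share of genes (percent, axis from 0 to 100) whose RefSeq promoter window holds an E2F word, a CCAAT box or a CHR element, in the replication set, the other replication genes, the G2/M and mitosis genes and all genes tested in HCT116, with the number of genes that had a window. The E2F bar is highest in the replication set at 53.7% and the CHR bar in the G2/M genes at 75.8%.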

How the data were processed

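Gene counts and FPKM values were deposited by the authors as whole-series tables, and the count is a whole, unnormalised number per Ensembl gene. Alignment used HISAT2 2.1.0 with GRCh38 as the build, per the submitters' processing notes. The counter, its annotation and its strand setting were not given in the sources used here. The deposited FPKM values equalled the count divided by a gene length and by the library's total, to a relative deviation of 5.2e-13. Libraries were grouped by title and treatment, per the labels, and the columns headed as vector were taken as HCT116 control, the least certain assignment.

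Counts were scaled by TMM, filtered with filterByExpr (99.8% of counts kept) and tested with edgeR 4.0.16 in R 4.3.3 (glmQLFit, glmQLFTest), with Benjamini-Hochberg adjustment over all genes tested and calls under 0.05. CPM are TMM-scaled within a line. Depth was 14464008 to 17230310 counts per library, and the biological coefficient of variation was 6.00% for HCT116 and 6.41% for LoVo. The test was checked on simulated counts. At a log2 change of 0.3 it recovered 46% of changed genes for OE, 51% for KD and 58% between the control lines. For the difference it recovered 11%. At a log2 change of 1 it recovered 100%, 100%, 100% and 97% in the same order. A gene not called may thus still have changed by an amount near 0.3. The simulation changed 100 genes by each amount. Unchanged genes called numbered 10 for OE, 3 for KD, 18 between the control lines and 8 for the difference. The data themselves gave far more calls for KD, the control lines and the difference, so recovery there may differ from these shares. Alternatives were RLE and upper-quartile scaling, no filter, DESeq2 1.42.0, limma 3.58.1 on log2(FPKM + 1) and log2(FPKM + 0.1), 1 fit of all 12 libraries, a replicate block, and each library left out.

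The members and all gene lists were chosen with earlier results of these data known. Genes given with values per library were the 8 smallest p of the set with OE and with KD, those called in opposite directions, the 4 smallest p of the difference and of each direction between the control lines, and the 3 smallest p of other replication genes in each comparison. Promoters came from RefSeq (GRCh38.p14) and exon overlap from GENCODE release 29 (GRCh38). SNORA5B was in the SLERT locus list and was not tested.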

Additional observations from a re-analysis of the deposited data

Results flagged for a closer look

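For 18 genes the change with SLERT overexpression in HCT116 differed from the change with knockdown in LoVo, by a test of that difference (edgeR, adjusted over 18199 genes). All 18 differences were positive on the log2 scale: 0.58 for ASF1B, 0.52 for TK1 and for MCM5, 0.48 for MCM2, 0.45 for CCNE1, 0.43 for FEN1, 0.42 for MCM4, 0.39 for PCNA, 0.38 for CLSPN, 0.37 for UNG and for CHAF1A, 0.36 for MCM10, 0.34 for POLD1, 0.32 for RFC2 and for CDC45, 0.29 for SLBP, and 0.23 for MCM3 and for MCM7. Groups of 3 libraries are too small for a search for single outlying libraries.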

How the results depend on the processing

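In HCT116 the genes of the set called higher with OE numbered 18, but 1 (MCM4) with limma on log2(FPKM + 0.1) and 1 on log2(FPKM + 1), and between 5 and 17 without 1 library. Of all genes tested, 4 rose and 3 fell in each of these limma fits, and 0.09668% to 1.163% rose without 1 library. Genes called lower with OE numbered 0 under every alternative run. For KD, 5 were called higher with all 12 libraries in 1 fit, and without 1 library 2 to 7 were called higher and 2 to 8 lower. Of all genes tested, 12.13% were called higher in the former, and 7.554% to 13.77% higher and 8.974% to 14.92% lower in the latter. The difference between the changes gave 13 to 20 genes higher and 0 lower without 1 library, and the control comparison 26 to 28 higher and 10 to 13 lower. Of all genes tested, 4.067% to 8.008% were higher and 3.372% to 5.877% lower for the difference. For the control comparison these shares were 38.15% to 38.77% and 36.77% to 38.09%. DESeq2 called 25 genes higher with OE and 22 for the difference, where 1.008% and 6.665% of all genes tested were called higher. Over all genes, the share of calls that were higher moved from 55.48% to 41.84% with upper-quartile scaling and 44.04% with all 12 libraries for OE, from 47.93% to 34.19% and 33.95% on FPKM for KD, and from 51.77% to 63.11% and 61.16% on FPKM for the difference. Leaving out 1 library moved that share for OE to between 43.24% and 66.55%.

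The same-numbered libraries of a line were weakly alike: their deviations correlated at 0.047, 0.034 and 0.046 in HCT116 and 0.069, 0.085 and 0.016 in LoVo, and each library correlated best with its own number. The main fits did not use this pairing, and whether the numbers mark a shared batch was not tested. With the replicate block, 32 genes of the set were called higher with OE, where 5.113% of all genes tested were called higher and 3.16% lower. Without the block these shares of all genes were 0.507% and 0.407%. For KD, 11 of the set were called higher and 11 lower, where 16.95% and 17.43% of all genes were. For the difference, 25 of the set were called higher and 0 lower, where 9.94% and 9.61% of all genes were.

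Among the genes named by rule, these values changed sign. Without 1 library, LIG1 with OE ran from -0.0374 (without OE library 1) to 0.106. For KD, CHAF1A ran from -0.135 to 0.0131 (without KD library 2), POLA2 from -0.146 to 0.0103 (without control library 2), CDC25A from -0.042 to 0.0371 (without control library 3, and also positive without KD library 3), and SNORA5C from -0.213 to 0.452 (without control library 3, and also positive without KD library 1). SNORA5C with KD was also 0.0383 and 0.0232 on log2(FPKM + 0.1) and log2(FPKM + 1), and 0.013 with the block. The cause was not tested. Over all 48 genes of the set, the sign changed without 1 library for 1 gene with OE (LIG1), 10 with KD, 7 for the difference (BLM, CDT1, GINS3, POLE2, RFC4, RRM1 and TYMS) and 2 between the control lines (GINS3 and MCM5). Of the 10 with KD, beside CHAF1A and POLA2, CCNE2 ran from -0.107 to 0.17, MCM10 from -0.156 to 0.0159, GINS2 from -0.106 to 0.0216, MCM7 from -0.0552 to 0.02, GINS1 from -0.0323 to 0.0836, E2F1 from -0.048 to 0.039, POLA1 from -0.0309 to 0.0383 and RFC5 from -0.00409 to 0.0591. Under the other alternatives it changed for 0 genes with OE, 4 with KD (CCNE2, E2F1, GINS1 and RFC5), 1 for the difference (BLM) and 4 between the control lines (ASF1B, GINS3, MCM2 and MCM5). For the 94 single-gene results that the naming rule picked, each refitted under every alternative, 1279 refits kept direction and side of the threshold, 130 lost a call, 20 gained one and 10 changed sign. Depth limits POLA2 most, with 57 to 235 counts per library.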
